A study of Mus musculus with 4 samples.

Results

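The cell cycle genes described here are 42 mouse genes that act in DNA replication (S phase, 15 genes), in mitosis (25 genes) or as transcription factors of the cycle (2 genes). They were chosen by gene name, and every probe set that the array annotation gives to one of them alone was used. For *Ccnb1* no such probe set was used here, so 41 of the 42 genes were measured, among 18193 named genes, by 97 probe sets. RNA of dermal cells was measured on 4 arrays, with 1 array for each condition, from female C57BL/6 mice that the labels give as 10 weeks old. The virgin, dorsal and abdominal arrays held abdominal dermis of virgin mice, dorsal dermis of pregnant mice and abdominal dermis of pregnant mice, all injected into the skin with the vehicle dimethyl sulphoxide (DMSO). The PP2 array held abdominal dermis of pregnant mice injected with PP2, an inhibitor of Src family kinases. All mice received 2 injections a day for 4 days, from 12 days post coitum (dpc) in the pregnant mice, which the sample titles place at 15 dpc at collection and the descriptions at 16 dpc. Subcutaneous fat was removed and the scraped skin digested with collagenases and hyaluronidase. The number of mice behind each array was not found in the sources. With 1 array in a condition no difference has a replicate check, so ratios compare these 4 arrays and no p-value or error is given.

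A dividing cell copies its DNA in S phase and separates the copies in mitosis. The MCM helicase, loaded on replication origins by CDC6 and CDT1, unwinds DNA, PCNA clamps the polymerases to it, and ribonucleotide reductase and thymidylate synthase supply nucleotides. In mitosis, cyclin B and CDK1 start division, Aurora and Polo-like kinases and kinesin motors build the spindle, the checkpoint holds the cell until chromosomes are attached, and the anaphase-promoting complex then ends it. In adult skin these genes are expressed by the dividing cells of the basal epidermis and the growing hair follicle, and at low levels by the mostly resting fibroblasts of the dermis.

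The arrays called 58.4 to 59.7% of probe sets present, a call that the probe set stood above its mismatch controls. The *Gapdh* control probe sets give a 3′ over 5′ ratio, which rises when RNA or its copies are short. It was 2.51 on the virgin, 2.97 on the dorsal, 1.41 on the abdominal and 5.84 on the PP2 array. The same ratio for *Actb* was 2.64, 4.14, 2.03 and 2.70, so the array with the highest ratio was the PP2 array by one control and the dorsal array by the other, and the abdominal array had the lowest by both. All 11 measured fibroblast and matrix genes were present on every array, and so were 12 of 13 epidermal keratinocyte genes. The cell suspensions labelled dermis therefore held RNA of epidermal markers, with *Krt5* signals of 13760, 19184, 16946 and 8098 and *Krt10* signals of 20305, 38195, 26475 and 15645 on the virgin, dorsal, abdominal and PP2 arrays. That order of arrays is kept for every run of 4 values. In mixed tissue, fewer cells of a type and less RNA per cell cannot be told apart.

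Of the 97 probe sets, 68 were called present on at least 1 array and 41 on all 4. The brightest probe set of a gene, by its log2 signal averaged over the arrays, stood for the gene. By this choice 37 genes were detected, 28 of them on all 4 arrays. The detected genes were 13 of 15 S-phase genes, 23 of 24 measured mitotic genes and 1 of the 2 transcription factors. *Kif20a* and *Foxm1* had 0 probe sets present on any array, while *Gins2* and *Ccne1* were detected only by a dimmer probe set. The calls differed between the classes: 12 of the 13 detected S-phase genes were present on all 4 arrays, against 15 of the 23 mitotic genes. The mitotic genes were present in 20 cases on the virgin, 15 on the dorsal, 23 on the abdominal and 22 on the PP2 array.

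The mitotic genes were lowest on the dorsal array. Of the 23 detected, 21 (91.3%) had their lowest signal of the 4 arrays there, as did 9 of the 13 S-phase genes (69.2%) and 30.8% of all 13375 detected genes. The exceptions among the mitotic genes were *Prc1* and *Bub1b*, which were lowest on the virgin array. The highest signal of a mitotic gene lay on the PP2 array for 12, on the abdominal array for 10 (22.1% of all detected genes had theirs there), on the virgin array for 1 and on the dorsal array for 0. Of the S-phase genes 7 (53.8%) were highest on the PP2 array, against 28.6% of all detected genes. Both counts of genes lowest on the dorsal array stayed at 21 and 9 when the arrays were scaled to one median or quantile normalised, and when the PP2 array was left out. With the mean of all detected probe sets of a gene they were 20 and 7, and the mitotic and S-phase genes highest on the PP2 array were 8 and 6, down from 12 and 7. These counts were chosen after the data were seen.

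The mitotic genes also spanned a wider range. The highest signal of a mitotic gene over its lowest had a median of 2.35 (range 1.43 to 8.20), and 19 of 23 exceeded 2. For the S-phase genes the median was 1.63 (range 1.24 to 2.57), and 3 of 13 exceeded 2. Over all detected genes the median was 1.58, and 26.1% exceeded 2. S-phase genes thus varied about as much as the median gene on these arrays. The mitotic genes were also dimmer: 16 of the 23, against 11 of the 13 S-phase genes, had a mean signal of at least 100. The ranges were not compared at matched signal, so the part of brightness was not tested. The summed signal of the detected mitotic genes was 4018, 2906, 6103 and 6290, and that of the S-phase genes was 14217, 11932, 14215 and 17773. The dorsal array had the lowest sum of both classes.

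**Figure D1:**
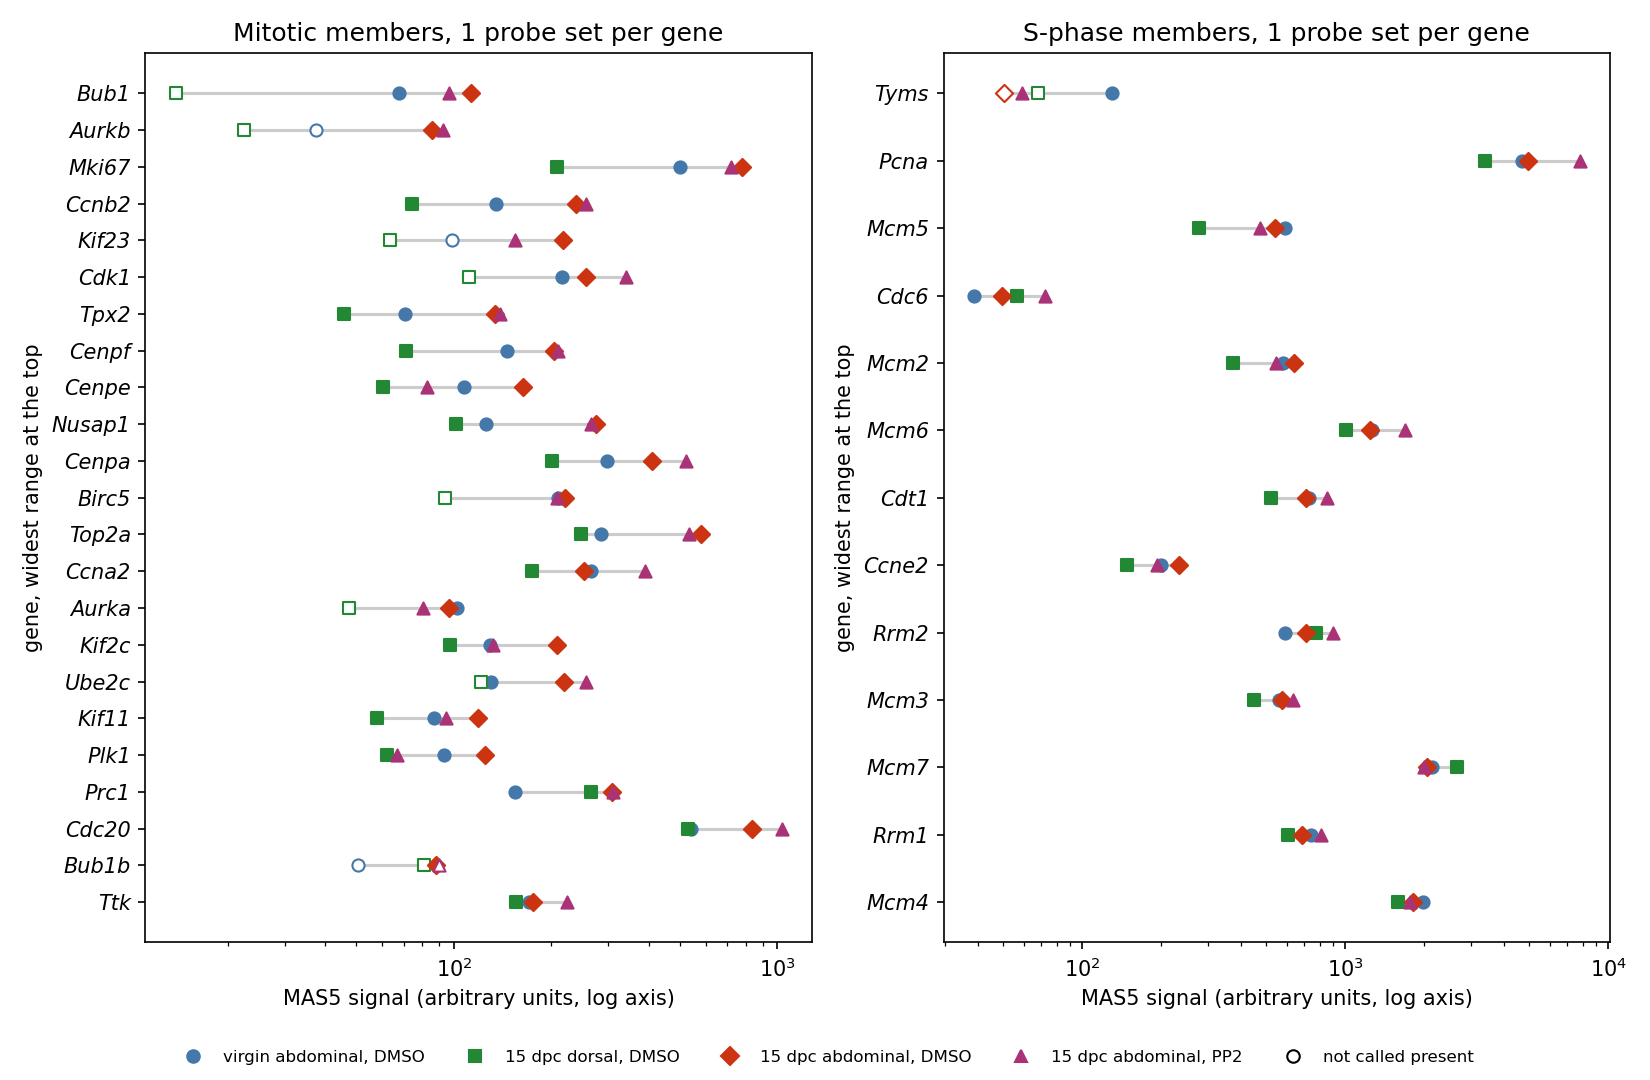
Deposited MAS5 signal on a log axis of the representative probe set of each detected mitotic and S-phase gene. Each array has 1 point, open where the probe set was not called present. Points of the dorsal array lie at the lower end for 21 of 23 detected mitotic genes and 9 of 13 detected S-phase genes.

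The promoters of the 2 classes differed in the short sequences they hold. Promoters were taken from RefSeq (GRCm38.p6), from 250 bases before to 50 after the start of a gene, for 34 of the 42 genes. They were searched on both strands for the cell cycle genes homology region (CHR, TTTGAA), a site known from genes expressed late in the cycle, for the CCAAT box (CCAAT), and for 4 forms of the E2F site of genes expressed at the start of replication. The form TTCCCGC was searched first, together with the related form TTCGCGC. The remaining forms of the site were TTGCCGC and, as the last of them, TTGGCGC. A CHR stood in 16 of 21 mitotic promoters (76.2%), in 1 of 12 S-phase promoters (8.33%, that of *Mcm2*) and in 17.9% of all 32851 promoters of the table. An E2F site stood in 3 of 21 mitotic promoters (14.3%, those of *Ccnb1*, *Cdk1* and *Mki67*), in 8 of 12 S-phase promoters (66.7%) and in 9.57% of all. A CCAAT box stood in 85.7% of mitotic, 66.7% of S-phase and 37.4% of all promoters. The letters may share bases: in *Mcm6* an E2F site on one strand overlaps one on the other. A match is a description of the sequence, and binding was not measured.

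The 120 bases before the start of 8 genes give examples of each class, with the 4 mitotic genes first. Each stretch runs 5′ to 3′ on the strand of the gene, and capitals mark a CHR, a CCAAT box (which reads ATTGG where it lies on the other strand) or an E2F site. The CHR of *Top2a* in this stretch lies on the other strand and so reads TTCAAA.
Mki67, chr7:135716380-135716499, minus strand: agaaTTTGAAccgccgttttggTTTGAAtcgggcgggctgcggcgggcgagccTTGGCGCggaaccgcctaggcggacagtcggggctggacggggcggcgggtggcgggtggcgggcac
Cdk1, chr10:69352913-69353032, minus strand: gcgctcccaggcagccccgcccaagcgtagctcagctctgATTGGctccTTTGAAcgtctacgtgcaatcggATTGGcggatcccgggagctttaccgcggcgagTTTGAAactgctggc
Top2a, chr11:99024190-99024309, minus strand: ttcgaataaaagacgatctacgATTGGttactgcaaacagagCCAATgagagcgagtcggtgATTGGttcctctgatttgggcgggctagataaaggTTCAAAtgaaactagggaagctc
Cdc20, chr4:118437344-118437463, minus strand: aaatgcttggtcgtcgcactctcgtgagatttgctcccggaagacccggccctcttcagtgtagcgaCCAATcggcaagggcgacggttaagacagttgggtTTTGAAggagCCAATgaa
Mcm6, chr1:128359706-128359825, minus strand: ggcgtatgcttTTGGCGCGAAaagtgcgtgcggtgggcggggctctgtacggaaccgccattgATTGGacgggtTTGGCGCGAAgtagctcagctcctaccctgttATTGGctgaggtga
Rrm1, chr7:102441575-102441694, plus strand: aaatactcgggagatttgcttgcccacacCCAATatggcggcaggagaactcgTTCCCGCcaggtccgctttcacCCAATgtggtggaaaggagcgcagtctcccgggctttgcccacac
Mcm2, chr6:88898781-88898900, minus strand: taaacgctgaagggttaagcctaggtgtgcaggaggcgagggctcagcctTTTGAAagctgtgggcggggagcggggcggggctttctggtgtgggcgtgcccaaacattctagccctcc
Pcna, chr2:132253181-132253300, minus strand: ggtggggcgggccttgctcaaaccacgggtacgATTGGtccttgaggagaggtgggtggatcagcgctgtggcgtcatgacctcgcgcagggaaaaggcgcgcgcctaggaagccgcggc
*Mki67* holds a CHR 116 and 98 bases and an E2F site 67 bases before the start. *Cdk1* holds a CHR at 71 and 15 and a CCAAT box at 80 and 48 bases, and *Cdc20* a CHR at 18 between CCAAT boxes at 53 and 8 bases. *Top2a* carries a CHR on the other strand 23 bases before the start, behind 3 CCAAT boxes. A further CHR of *Top2a*, on its own strand 179 bases before the start, lies outside the stretch shown. The S-phase genes *Mcm6* and *Rrm1* hold E2F sites and CCAAT boxes with 0 CHR in these bases. *Mcm2* is the S-phase gene with a CHR, 70 bases before its start, and *Pcna* shows a CCAAT box alone.

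Among the mitotic cyclins and kinases, the lowest signal of all 6 detected genes was on the dorsal array. *Cdk1*, the kinase that drives entry into mitosis and whose promoter holds all 3 sequences, had signals of 216, 111, 257 and 340 and was not called present on the dorsal array. It was at least 2.31-fold higher on the abdominal and at least 3.06-fold higher on the PP2 than on the dorsal array. Here and below, at least marks a ratio whose lower signal had no present call. Such a signal is not a firm limit on expression, so the fold is nominal and holds for that probe set alone. *Ccnb2*, a B-type cyclin that activates this kinase, measured 135, 74.4, 238 and 256, all present. The abdominal signal was 3.20-fold the dorsal and 1.77-fold the virgin signal. *Ccna2*, the cyclin of S phase and of entry into mitosis, measured 265, 175, 252 and 389. Its second probe set gave 189, 114, 262 and 224, so the array with the highest signal was the PP2 array by one probe set and the abdominal array by the other.

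*Aurkb*, the kinase of the chromosomal passenger complex, had signals of 37.6, 22.5, 85.9 and 92.5 and was present on the abdominal and PP2 arrays alone. By this probe set it was at least 3.82-fold higher on the abdominal than on the dorsal array, and the excess over the virgin array was at least 2.28-fold. A dimmer probe set of *Aurkb*, with the same calls, gave 33.5, 25.8, 63.1 and 43.7. By that one the folds were at least 2.45 over the dorsal and 1.88 over the virgin array, and the abdominal array was highest. *Aurka*, the Aurora kinase of the spindle poles, measured 102, 47.3, 96.4 and 80.2 and was highest on the virgin array, the one mitotic gene to be so. *Plk1*, the Polo-like kinase, measured 93.3, 62.0, 125 and 66.9. The PP2 array was close to the dorsal array for this kinase, with the abdominal array 1.87-fold above it.

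The checkpoint and anaphase genes were less uniform. *Bub1*, a checkpoint kinase at the kinetochore, had the widest range among the representative probe sets, with signals of 67.9, 13.8, 113 and 96.8 and no present call on the dorsal array. It was at least 8.20-fold higher on the abdominal than on the dorsal array, and at least 4.91-fold higher on the virgin than on the dorsal array. A second, dimmer probe set of *Bub1* placed the virgin array above the abdominal array by at least 2.30-fold. By it the dorsal signal of 17.5 lay above the abdominal signal of 12.9, with neither called present. *Bub1b*, the checkpoint protein BubR1, measured 50.5, 80.8, 88.1 and 89.9 but was present on the abdominal array alone. *Ttk*, the kinase that sets up the checkpoint, measured 171, 156, 175 and 223, one of the narrowest ranges among mitotic genes. *Cdc20*, the activator of the anaphase-promoting complex, measured 541, 529, 834 and 1030. *Ube2c*, its ubiquitin-conjugating enzyme, measured 130, 121, 219 and 256, with no present call on the dorsal array. By these probe sets both were higher on the abdominal and PP2 arrays than on the other 2 arrays, but a second probe set of *Cdc20*, present on every array, gave 338, 264, 392 and 282, with PP2 below virgin.

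The spindle motors and microtubule proteins had the largest median ratio of the abdominal over the virgin array. *Kif23*, a kinesin of cytokinesis, measured 98.7, 63.5, 218 and 155 and was present on the abdominal and PP2 arrays alone. It was at least 3.43-fold higher on the abdominal than on the dorsal array, and the excess over the virgin array was at least 2.21-fold. *Tpx2*, which activates Aurora A on the spindle, measured 70.6, 45.8, 134 and 139, so that the abdominal signal was 2.93-fold the dorsal and 1.90-fold the virgin signal. Another probe set of *Tpx2*, present on the dorsal and PP2 arrays alone, gave 94.8, 70.5, 103 and 63.0, with PP2 lowest. A dimmer one, present on the PP2 array alone, gave 58.5, 14.2, 87.3 and 90.7. *Nusap1*, which bundles spindle microtubules, measured 126, 101, 275 and 266 by its brighter probe set. Its second probe set gave 47.1, 19.0, 38.8 and 24.2, with no present call on the dorsal and PP2 arrays, and did not repeat the high PP2 value. *Kif11*, *Kif2c* and *Prc1*, 2 kinesins and the organiser of the spindle midzone, had signals between 57.9 and 310, and their abdominal signals were 2.06-fold, 2.15-fold and 1.16-fold the dorsal ones. A second probe set of *Kif11*, present on every array, gave 1.13-fold.

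By the representative probe sets, all 6 centromere and chromosome genes were more than 2-fold higher on the abdominal than on the dorsal array. *Mki67* encodes Ki-67, the coat of mitotic chromosomes that serves as the common marker of cycling cells, and it measured 499, 208, 777 and 720 on the 4 arrays, all present. The abdominal signal was 3.73-fold the dorsal, 1.56-fold the virgin and 1.08-fold the PP2 signal. *Top2a*, the topoisomerase that untangles sister chromatids, measured 284, 248, 579 and 534. By this probe set the virgin and dorsal arrays were close and the 2 abdominal arrays of pregnant mice were high. A second, dimmer probe set gave 74.2, 67.2, 86.6 and 29.9, not called present on the virgin array, and its abdominal signal was 2.90-fold the PP2 signal against 1.09-fold by the first.

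*Cenpf*, a kinetochore protein that accumulates late in the cycle, measured 146, 71.0, 205 and 210 and was 2.88-fold higher on the abdominal than on the dorsal array. *Cenpe*, a kinetochore kinesin, measured 108, 60.3, 164 and 82.9. It was 1.98-fold higher on the abdominal than on the PP2 array, the largest such ratio among mitotic genes. *Cenpa*, the centromeric histone, measured 297, 201, 411 and 520. A second probe set of *Cenpa* gave 105, 79.4, 78.7 and 56.0 and was called present on the virgin and abdominal arrays alone. By it the abdominal signal was 0.99-fold the dorsal signal. *Birc5*, the passenger protein survivin, measured 209, 93.6, 220 and 208 and lacked a present call on the dorsal array, above which the other 3 arrays lay by at least 2.22-fold.

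By the representative probe sets the 6 MCM genes were less spread over the arrays than most mitotic genes, *Mcm5* being the one past 2-fold. *Mcm2* measured 578, 374, 640 and 544, and *Mcm5* 592, 278, 541 and 475, which made *Mcm5* the MCM gene with the widest range. *Mcm6* measured 1261, 1006, 1246 and 1690. A second probe set of *Mcm6*, present on every array, gave 1233, 1029, 964 and 1055. *Mcm4*, with 1974, 1591, 1807 and 1769, had the narrowest range of any S-phase gene by its representative, a probe set that may share sequence with other transcripts. Its other probe set, present on every array, gave 1026, 707, 1339 and 1496. That is a range of 2.12-fold, against 1.85-fold by a second probe set of *Mcm5*, also present on every array. *Mcm3* was likewise lowest on the dorsal array, whereas *Mcm7* was highest there, 1.30-fold above the abdominal array. Another probe set of *Mcm7*, present on every array, gave 528, 530, 560 and 409, while its remaining probe sets were also highest on the dorsal array. By the representative probe sets the helicase subunits therefore did not share one order of the arrays, and for some the order changed with the probe set.

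The replication clamp gene *Pcna* stood out by its PP2 signal, with 4690, 3400, 4932 and 7792. The PP2 array was 2.29-fold above the dorsal and 1.58-fold above the abdominal array. *Rrm1*, the large subunit of ribonucleotide reductase, measured 739, 605, 684 and 806, and *Rrm2*, the small subunit whose level follows the cycle, 593, 775, 707 and 896. A second probe set of *Rrm1*, present on every array, gave 203, 140, 256 and 94.8. By it the PP2 array was lowest, with the abdominal array 2.70-fold above it. *Tyms*, thymidylate synthase, measured 130, 68.1, 50.6 and 59.2 and was at least 2.57-fold higher on the virgin than on the abdominal array, with a marginal call on the dorsal and abdominal arrays. It was the only S-phase gene past 2-fold in the abdominal over virgin comparison, and it was lower on the abdominal array.

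*Cdc6*, the loader of the helicase, measured 38.7, 56.2, 49.4 and 72.1, and its partner *Cdt1* 728, 522, 711 and 853. *Gins2*, a subunit of the active helicase, was detected by a dimmer probe set with 122, 37.3, 161 and 134 and was not present on the dorsal array, at least 4.32-fold below the abdominal one. Its brighter probe set was not called present on any array. The cyclins that open S phase were *Ccne2*, with 199, 148, 233 and 193, and *Ccne1*, whose detected probe set gave 156, 8.2, 117 and 166 and was not present on the dorsal array. The probe set of *Ccne1* is one that can share sequence with other transcripts, and its brighter partner was not called present on any array.

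The transcription factors were dim. *Foxm1*, a forkhead factor of mitotic genes, gave 204, 203, 224 and 156 without a present call on any array, so no ratio is given. *Mybl2*, the B-Myb factor, measured 50.1, 46.3, 65.1 and 10.8, all called present, which placed the abdominal array 6.02-fold above the PP2 array. Its other probe set was not called present on any array, and the ratio rests on the PP2 signal of 10.8, where the dimmest present signal of that array was 3.96.

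The first comparison asked what differed between abdominal dermis of pregnant and of virgin mice. Mitotic genes were higher on the abdominal array, with a median log2 ratio of 0.64, and 21 of 23 ratios were above 1. The S-phase genes had a median of -0.02, with 6 of 13 above 1, and all detected genes a median of 0.02. More than 2-fold higher were 4 members (*Aurkb*, *Kif23*, *Nusap1* and *Top2a*), and 1 was lower (*Tyms*), against 3.24% of all detected genes higher and 3.39% lower. At 1.5-fold 14 members were higher and 1 lower, against 9.4% and 8.17% of all, and at 3-fold 0 were higher and 0 lower, against 1.12% and 1.13%. By role, the median was 0.96 for the 6 detected spindle motors and microtubule proteins, 0.74 for the 5 checkpoint and anaphase genes, 0.55 for the 6 centromere and chromosome genes, 0.34 for the 6 cyclins and kinases and -0.04 for the 6 MCM genes.

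That comparison rested on the choice of probe set. Of 16 members with a second probe set present on both arrays, 6 had both ratios on the same side of 1, 3 of 7 mitotic and 3 of 9 S-phase genes. The median difference between the 2 log2 ratios of a gene was 0.43 among members and 0.28 among all 5265 genes with such a pair. With the mean of all detected probe sets of a gene, 2 members were more than 2-fold higher, and with genes present on both arrays alone also 2.

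The second comparison asked what PP2 changed in abdominal dermis of pregnant mice. The mitotic genes lay on both sides, with a median log2 ratio of the abdominal over the PP2 array of -0.01 and 11 of 23 ratios above 1. The S-phase genes had a median of -0.23, that is higher on the PP2 array, with 5 of 13 above 1, and all detected genes a median of 0.01. More than 2-fold higher on the abdominal array was 1 member (*Mybl2*, the dim factor above), and 0 were lower, against 4.73% and 3.62% of all detected genes. At 1.5-fold, 4 members were higher, among them *Plk1*, *Kif2c* and *Cenpe*, and 2 were lower, *Pcna* and *Ccna2*, against 12.4% and 9.44% of all detected genes. Of 37 members these counts are no more than the background share.

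The abdominal and PP2 arrays were each set against the virgin array, which they share. PP2 over virgin gave a median log2 ratio of 0.65 for mitotic and 0.13 for S-phase genes, beside 0.64 and -0.02 for the abdominal array. In it 2 members were more than 2-fold higher and 2 lower, against 3.15% and 4.18% of all detected genes. The PP2 values of single genes also moved with the probe set, as the second probe sets of *Ccna2* and *Nusap1* show. Of 5 mitotic genes with a second probe set present on both the PP2 and dorsal arrays, 1 had both ratios on the same side of 1. The 3′ over 5′ ratio of the PP2 array was 5.84 for *Gapdh*, the largest of the 4 arrays, and 2.70 for *Actb*, and the part of RNA quality in these differences was not tested.

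The third comparison asked how abdominal differed from dorsal dermis in pregnancy, and it gave the largest ratios. The median log2 ratio of the abdominal over the dorsal array was 1.21 for mitotic genes, with 23 of 23 ratios above 1, and 0.31 for S-phase genes, with 9 of 13 above 1, beside 0.04 for all detected genes. More than 2-fold higher were 17 members, all mitotic, and 0 were lower, against 5.03% and 4.75% of all detected genes. At 3-fold 5 were higher and 0 lower, against 2.17% and 1.75%. By role the 17 were 6 of 6 centromere and chromosome genes, 5 of 6 cyclins and kinases, 5 of 6 spindle motors and microtubule proteins and 1 of 5 checkpoint and anaphase genes. These 17 rest on the representative probe sets. With the brightest detected probe set of a gene, 19 of 39 members were higher, the S-phase genes *Gins2* and *Ccne1* being added. Counting only genes present on both arrays gave 11, since 15 of the 23 mitotic genes were called present on the dorsal array, and leaving out members with a mean signal under 100 also gave 11. Both probe sets lay on the same side of 1 in 10 of 12 members that could be compared, 4 of 4 mitotic and 6 of 8 S-phase genes. The size was not repeated in the mitotic genes. Second probe sets gave 1.48-fold for *Cdc20*, 1.13-fold for *Kif11* and 1.26-fold for *Prc1*, and that of *Top2a* also stayed under 2-fold. Of these genes *Kif11* and *Top2a* are among the 17. The dorsal array had a higher 3′ over 5′ ratio than the abdominal array, 2.97 against 1.41 for *Gapdh* and 4.14 against 2.03 for *Actb*, and the part of RNA quality was not tested.

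**Figure D2:**
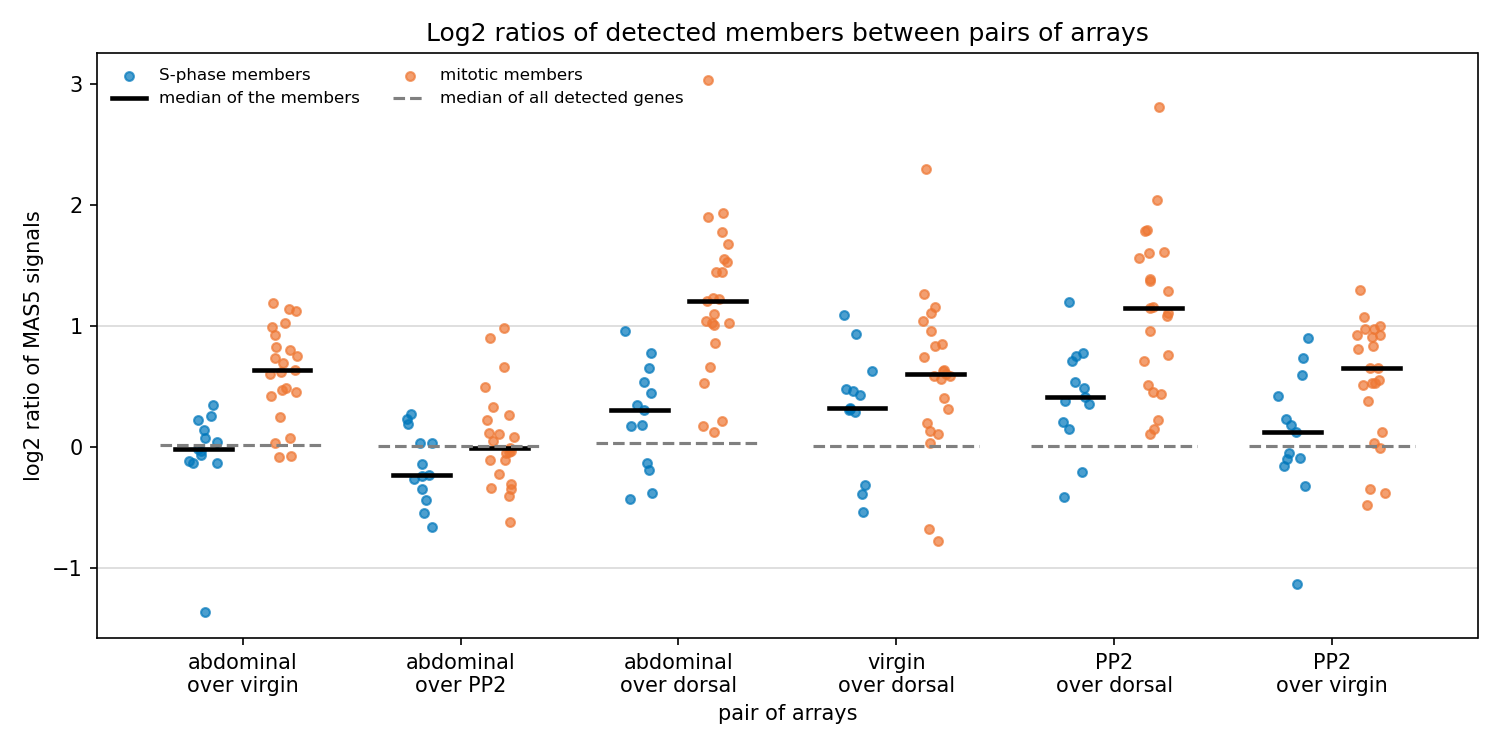
Log2 ratio between each pair of arrays for each detected S-phase and mitotic gene, with the classes apart and the median of each class marked. For the abdominal array the mitotic medians are 0.64 over virgin, -0.01 over PP2 and 1.21 over dorsal, and the S-phase medians -0.02, -0.23 and 0.31.

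The other abdominal arrays were also above the dorsal array. Virgin over dorsal had a median log2 ratio of 0.60 for mitotic genes, with 5 more than 2-fold higher, and 0.33 for S-phase genes, with 1 higher. In all, 6 members were higher and 0 lower, against 4.49% and 5.21% of all detected genes. PP2 over dorsal had medians of 1.15 and 0.41, with 15 members higher and 1 lower, against 5.29% and 6.39%. These comparisons share the dorsal array, so a low value there enters each of them.

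**Figure D3:**
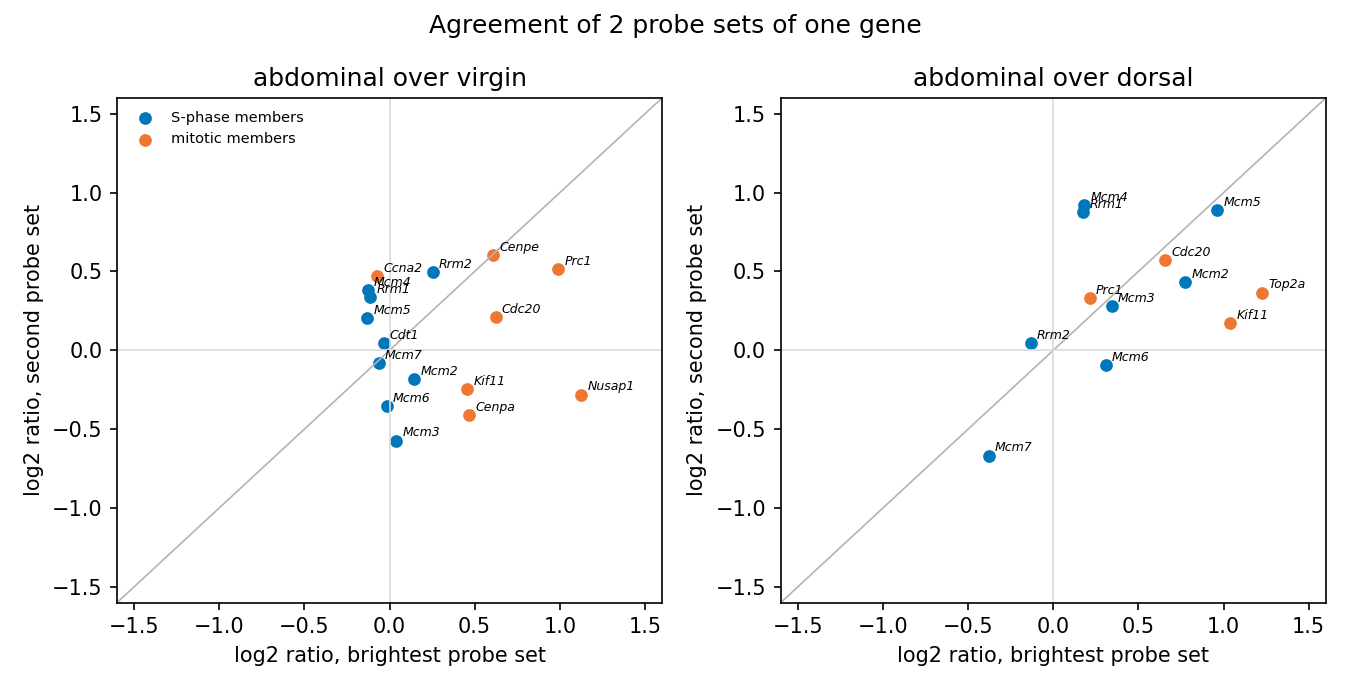
Log2 ratio of the second probe set (vertical axis) against that of the representative (horizontal axis) for members with both present on both arrays. Points in the upper right and lower left have both ratios on the same side of 1. This held for 6 of 16 members for abdominal over virgin and 10 of 12 for abdominal over dorsal. For abdominal over PP2, which is not drawn, it held for 10 of 16.

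Other genes of the same processes were measured as companions. Of 45 further mitosis genes 35 were detected, of which 24 were lowest on the dorsal array, where 30.8% of all detected genes were lowest, and 21 highest on the abdominal array, where 22.1% of all were highest. Their median log2 ratio was 0.43 for abdominal over virgin, with 5 more than 2-fold higher and 0 lower, 0.11 for abdominal over PP2, with 0 in either direction, and 0.64 for abdominal over dorsal, with 13 higher and 0 lower. In the same comparisons 3.24%, 4.73% and 5.03% of all detected genes were higher and 3.39%, 3.62% and 4.75% lower. *Ect2*, an exchange factor of cytokinesis, measured 170, 83.4, 378 and 303, and *Smc2*, a condensin subunit, 433, 192, 627 and 728. *Aspm*, a spindle pole protein, measured 87.6, 70.2, 204 and 178. Their lowest signals were on the dorsal array, as for most mitotic members.

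Of 34 further replication genes 31 were detected, and 19 were lowest on the dorsal array, where 30.8% of all detected genes were lowest. Their median log2 ratio was 0.08 for abdominal over virgin, -0.07 for abdominal over PP2 and 0.38 for abdominal over dorsal, with 1, 0 and 3 genes more than 2-fold higher and 0, 1 and 0 lower. Of all detected genes 3.24%, 4.73% and 5.03% were higher and 3.39%, 3.62% and 4.75% lower. *Slbp*, the histone mRNA binding protein, measured 1812, 1340, 1405 and 2922, highest on the PP2 array as *Pcna* was. *Uhrf1*, which maintains DNA methylation behind the fork, measured 290, 91.6, 337 and 353, and *Tk1*, thymidine kinase, 54.6, 7.3, 147 and 136 with no present call on the virgin and dorsal arrays. Both were low on the dorsal array, *Uhrf1* alone being called present there.

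Genes of other cell types moved with the arrays as well. The 18 detected hair follicle genes had a summed signal of 2612, 3331, 20006 and 4649 and were present in 7, 6, 17 and 10 cases. They were highest on the abdominal array in 17, with a median log2 ratio of 3.87 over virgin, 2.49 over PP2 and 3.81 over dorsal. Of the 23 detected mitotic genes 10 were highest on the abdominal array, against 22.1% of all detected genes, and their median was -0.01 for abdominal over PP2. The 13 epidermal keratinocyte genes had sums of 85471, 143394, 114112 and 70862 and were highest on the dorsal array in 9 cases, against 27.7% of all detected genes. The 11 fibroblast genes had sums of 162345, 127510, 142088 and 132524.

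The 7 detected macrophage genes of 9 measured had sums of 3878, 3223, 3530 and 3126 and were lowest on the dorsal array in 6 cases, with a median log2 ratio of 2.43 for virgin over dorsal and 1.21 for abdominal over dorsal. Of all detected genes 30.8% were lowest on the dorsal array, a share to set beside the adipocyte and mast cell counts below as well. Endothelial genes, all 9 detected, had medians of 0.17 over virgin, 0.42 over PP2 and 0.42 over dorsal for the abdominal array. The 6 detected adipocyte genes of 8 measured had sums of 42113, 29474, 56563 and 34889 and were lowest on the dorsal array in 4 cases, with medians of 2.16 for abdominal over dorsal, 1.31 for virgin over dorsal and 0.59 for PP2 over dorsal. Mast cell genes, 3 detected of 7 measured, were lowest on the dorsal array in 3 cases, with 0 called present there. The part of these cell types in the mitotic ratios was not tested.

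**Figure D4:**
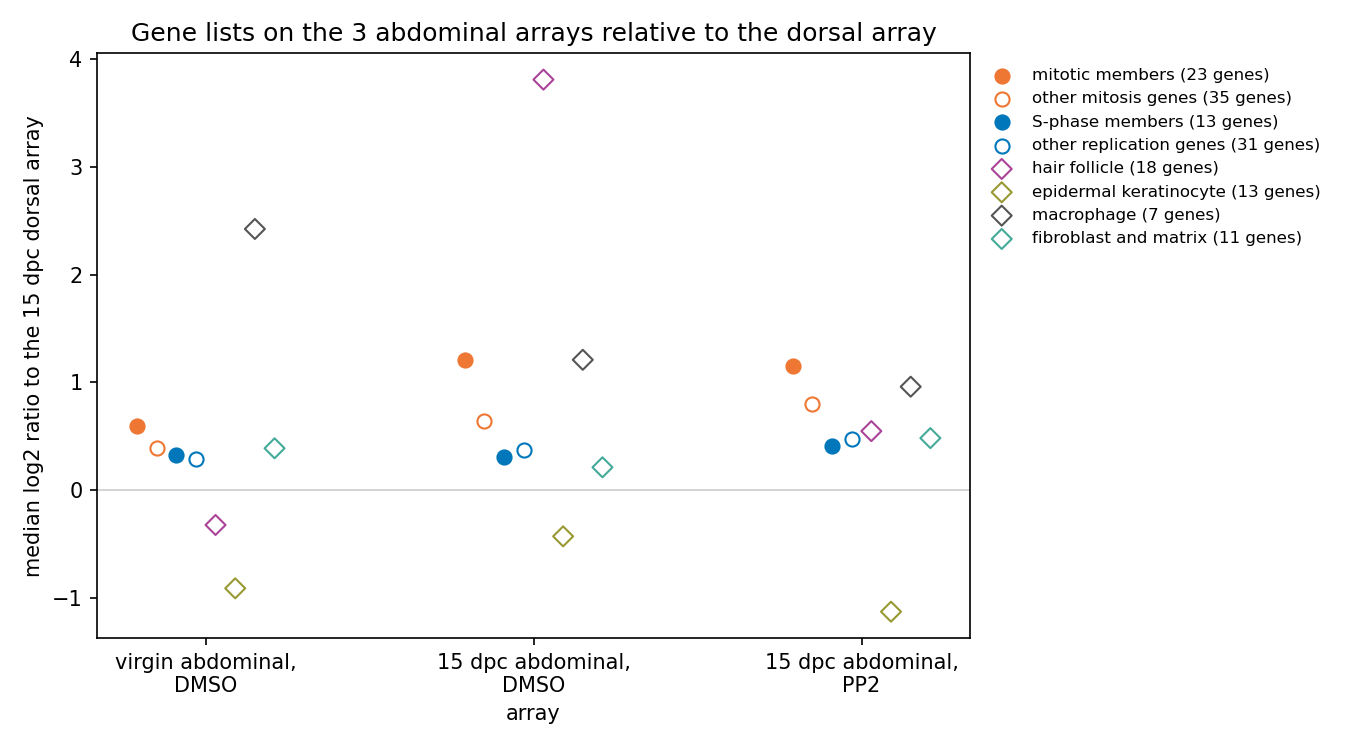
Median log2 ratio of each of the other 3 arrays to the dorsal array for the mitotic and S-phase members, their companions and 4 cell type lists. The mitotic members are at 0.60, 1.21 and 1.15 on the virgin, abdominal and PP2 arrays, while the hair follicle list is at -0.32, 3.81 and 0.55 and the keratinocyte list at -0.91, -0.43 and -1.13.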

How the data were processed

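Dermal RNA of 4 conditions had been labelled with a 3′ kit and hybridised to Affymetrix arrays, with 1 array for each condition. The authors deposited for each of 45101 probe sets a call of detection and a signal, which is a linear intensity. Per the submitters' processing notes the software was Affymetrix Expression Console 1, and the columns name the MAS5 algorithm, which combines the probes of a probe set and scales each array to a common mean. The signals were used as deposited. The table of all arrays differed from the single arrays for 0 probe sets, and 0 columns of values lacked a sample. A genome build was not given in the sources used here.

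Gene names came from the platform annotation. The 34945 probe sets with 1 symbol were used, those with several (932) or none (9211) were left out, and names were checked against GRCm38.p6. A member was represented by the probe set that was brightest by its log2 signal averaged over the arrays, and was detected when this was called present on at least 1 array. It counted as higher or lower past a ratio of 2 when present on the brighter array. Where the dimmer of 2 arrays was not called present, a fold is written with at least. It is the ratio to the higher of the measured signal and the dimmest present signal of that array. This bound is nominal, since a signal without a present call is not a firm limit on expression. Medians of lists stand beside those of all 13375 detected genes. No test was run. The calculation of ratios, counts and medians was checked on simulated data of bright genes with every call set to present. That check does not cover dim genes or genes without a present call.

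The members and lists were chosen with earlier results of these data known. Every member could be named. All 4 signals are given for *Mki67*, *Top2a*, *Cdk1*, *Pcna*, *Mcm2*, *Foxm1* and *Mybl2*, for the 6 S-phase and 10 mitotic genes with the widest range and for the 2 of each class with the narrowest, and further members complete the account of each role. Companions are those with the largest ratios. Alternatives were other scalings, other choices of probe set, a pseudocount of 32, no detection filter, presence on both arrays, and ratios of 1.5 and 3. Python 3.11.15, numpy 2.4.6, pandas 2.3.3 and matplotlib 3.10.9 were used.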

Additional observations from a re-analysis of the deposited data

How the results depend on the processing

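No paired analysis was possible because there was 1 array in each condition, and for the same reason 0 replicates could be left out. Over 19 results, 136 of 155 alternatives kept their direction and stayed within a set limit, 13 moved past it and 6 changed sign, a median counting as moved past 0.43 on the log2 scale, the largest over the comparisons of the median difference between 2 probe sets of a gene, taken over all genes, and a count past 1.5 times. The medians that changed sign lay near 0. The S-phase median of abdominal over virgin (-0.02) became 0.0254 with each array scaled to one median, 0.0059 with the mean of all detected probe sets and 0.0104 with genes present on both arrays. The mitotic median of abdominal over PP2 (-0.01) became 0.11 with the mean of all detected probe sets, 0.0218 with genes present on both arrays and 0.0654 without probe sets that may share sequence with other transcripts. Leaving out such probe sets or dim members, using the brightest detected probe set, and the counts of genes lowest on the dorsal or highest on the PP2 array with all their alternatives were chosen after seeing the data.

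Of the counts for abdominal over virgin, the 4 genes higher became 2 with the mean of all detected probe sets, 2 with genes present on both arrays, 14 at a ratio of 1.5 and 0 at 3, and the 1 gene lower became 0 with genes present on both arrays, 0 at 3 and 0 without members under a mean signal of 100. For abdominal over PP2 the 1 gene higher became 4 at 1.5 and 0 without the dim members, and the 0 lower became 2 at 1.5. For abdominal over dorsal the 17 higher became 11 with genes present on both arrays, 5 at 3 and 11 without the dim members. Fewer genes entered the filtered counts.

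Scaling each array to one median moved the median of all genes for abdominal over PP2 from 0.01 to -0.10, for PP2 over dorsal from 0.01 to 0.20, and for PP2 over virgin from 0.01 to 0.16. Among all genes past 2-fold between the abdominal and PP2 arrays, 56.7% were higher on the abdominal array as deposited, 45.7% with one median and 41.0% after quantile normalisation. The count of mitotic genes highest on the PP2 array was 12 as deposited, 14 with one median, 16 after quantile normalisation and 8 with the mean of all detected probe sets. The number of arrays limits the precision, and mitotic genes with signals under 100 are the least certain.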

Other observations

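The genes that govern entry into the cycle were described as well. The 8 G1 cyclins and kinases, all present on every array, had median log2 ratios of 0.08 for abdominal over virgin, 0.02 for abdominal over PP2 and 0.11 for abdominal over dorsal. *Ccnd1*, cyclin D1, measured 2590, 1827, 3803 and 2039 on the virgin, dorsal, abdominal and PP2 arrays, and was highest on the abdominal array. *Ccnd3*, cyclin D3, measured 2085, 846, 906 and 1255, and was highest on the virgin array.

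Of 14 detected inhibitors of the cycle, the median log2 ratio was 0.07 for abdominal over virgin, -0.14 for abdominal over PP2 and -0.11 for abdominal over dorsal. *Cdkn1c*, which encodes the inhibitor p57, measured 1588, 970, 677 and 1272. *Btg2*, an antiproliferative immediate early gene, measured 13932, 11080, 7735 and 3492, lowest on the PP2 array. *Cdkn2a* was called present on the abdominal array alone, at a signal of 63.2.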
